A study of Mus musculus with 33 samples.

Results

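Cultured enteric neural crest-derived cells (ENCCs) of the embryonic mouse gut were compared with the intact gut they populate, on 12 of the 33 microarrays of the study. The 12 arrays are the untreated ENCC and whole gut hybridisations of the second batch: 4 ENCC arrays, from guts 2, 3, 8 and 9, and 8 whole gut arrays, all at embryonic day 14.5 (E14.5) and from C57BL/6 mice. The ENCCs came from embryos with a Wnt1-Cre transgene and a Cre-dependent YFP reporter at the R26 locus, which marks cells of the neural crest lineage, and were sorted by YFP fluorescence. They were then grown on fibronectin in DMEM-F12 with N2 and B27 supplements and 20 ng/ml each of FGF and EGF. The cells of a gut were divided over 2 wells, of which the well given 50 ng/ml GDNF is left out here. The whole guts were wild type, were dissected from duodenum to anus and were not cultured, so that culture, sorting, genotype and cell type cannot be told apart in any difference below. The labels give neither the time in culture nor whether a whole gut RNA came from a single embryo, and nothing ties an ENCC gut to a whole gut. One label field of the whole gut samples calls them enteric neural crest cells, against their source name; the marker genes below go with the source name.

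The enteric nervous system arises from neural crest cells that leave the hindbrain, enter the foregut and migrate to the anal end of the gut. On the way they divide and give rise to neurons and glia in response to signals from the gut wall, among them GDNF, which signals through the receptor Ret with its co-receptor Gfra1, and endothelin 3, which signals through Ednrb. Loss of these signals leaves the distal bowel without ganglia, the condition called Hirschsprung disease. A whole gut holds these cells among epithelium, muscle, mesothelium, vessels and blood cells.

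The deposited value of a gene is a score without a unit: the normal quantile of its rank within the array, with 0 at the median and a range of -4.08 to 4.08. Judged from the scores, values had been centred and scaled over ENCC arrays, GDNF-treated ones among them, before ranking, though no source used here records the step. The treated wells, left out of the differences, would thus still enter the centre and scale of every score. ENCC scores lie around 0 for most genes, and the information on direction lies in how far the whole guts stand from them. A difference in score is therefore not a fold change, its size depends on how much the gene varied among ENCC arrays, and scores of different genes are not levels that can be set against each other. For each of 18193 genes the difference, ENCC minus whole gut, was tested with limma, and a gene is called higher or lower where its Benjamini-Hochberg adjusted p is under 0.05. ENCC values are given throughout in the order of guts 2, 3, 8 and 9, and whole gut values as the lowest, the median and the highest of the 8.

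The scores of the ENCC arrays spread far more than those of the whole guts. Correlations over genes ran from -0.219 to 0.215 between ENCC arrays and from 0.914 to 0.966 between whole guts. Centring over ENCC arrays takes out what those arrays share and leaves the whole guts a common offset, so that these correlations do not measure how alike the RNAs of a group were. The median standard deviation of a gene was 0.755 in the ENCCs and 0.154 in the whole guts. Scaling over ENCC arrays and ranking shape both values, so that this contrast is one of scores and not of RNA levels. ENCC gut 3 stood apart in these scores. Its correlations with the other 3 ENCC arrays were -0.219 to 0.00566, values that the centring also shapes. Its mean over 11 ribosomal protein genes was -0.65 against 0.63 to 0.92 in the others and 0.78 to 0.88 in the whole guts. The part of this library's state in the results was not tested. Because the smaller group had the larger spread, a fit with 1 spread for both groups is generous. Each count is therefore also given with the spread of the ENCC arrays alone. That second fit leaves out the error of the whole gut mean, so it is generous in turn where a gene varied among the whole guts. Of the 2 adjusted p-values beside a difference, both from limma, the first comes from the fit with 1 spread and the second from the ENCC spread alone. A further fit, with 1 weight for each group, is named where it ended a call that the ENCC spread alone kept.

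A large share of all genes differed. With 1 spread, 3598 genes (19.8%) were higher and 4154 (22.8%) lower in the ENCCs; with the ENCC spread alone the counts were 1583 (8.7%) and 2174 (11.9%). In 2258 genes (12.4%) all 4 ENCC arrays lay above all 8 whole guts, and in 2766 (15.2%) all lay below. These shares are the background against which each gene group below is read, and the median difference over all genes was -0.01. The p-values measure the spread between these arrays. Without ENCC gut 3 the count of called genes was 9497 instead of 7752.

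The marker genes of the sorted lineage were higher in the ENCCs, and the epithelial marker was lower. Ret, the GDNF receptor, scored 0.92, -1.05, -0.49 and -0.21 in the ENCCs and -2.06, -2.01 and -1.96 in the whole guts. Every ENCC array lay above every whole gut, with gut 3 the lowest, and the difference was 1.80 ± 0.27 (SE, adjusted p = 9.88e-05 and 0.00504). Sox10, the transcription factor that keeps crest progenitors and glia, scored 0.26, -0.50, 0.22 and 0.63 in the ENCCs and -1.57, -1.51 and -1.45 in the whole guts, a difference of 1.66 ± 0.19 (SE, adjusted p = 1.01e-05 and 0.00571). Foxd3, an early crest factor, scored 1.62, -0.34, 0.66 and 1.04 in the ENCCs and -3.07, -2.93 and -2.79 in the whole guts, a difference of 3.67 ± 0.27 (SE, adjusted p = 3.18e-07 and 6.13e-05). Elavl4, an RNA-binding protein of neurons, scored 0.27, -1.57, 0.10 and 1.37 in the ENCCs and -2.50, -2.45 and -2.38 in the whole guts, and differed by 2.49 ± 0.37 (SE, adjusted p = 9.02e-05 and 0.00108). For all 4 genes gut 3 was the lowest ENCC array and still above the whole guts. Epcam, an adhesion molecule of epithelia, went the other way, with scores of 0.49, 0.55, -0.41 and -0.16 in the ENCCs and 2.01, 2.21 and 2.24 in the whole guts and a difference of -2.06 ± 0.19 (SE, adjusted p = 1.9e-06 and 0.00135).

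**Figure D1:**
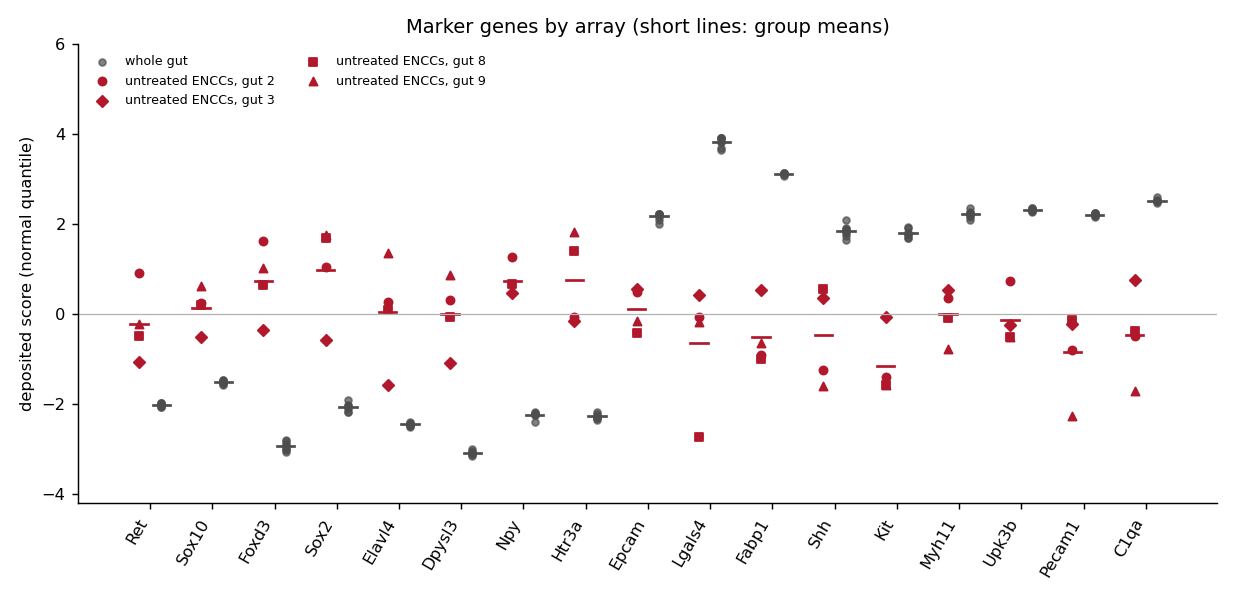
Deposited score (vertical axis, normal quantile without a unit) of 17 marker genes (horizontal axis) on each array: red symbols are the 4 untreated ENCC arrays, with 1 shape a gut, grey points the 8 whole guts, and short lines the group means. Whole guts cluster tightly for each gene and lie below the ENCC points for the crest and neuronal genes from Ret to Htr3a and above them from Epcam to C1qa; the ENCC array of gut 3 (diamonds) is the lowest ENCC array for Ret, Sox10, Foxd3 and Elavl4.

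Of 22 crest progenitor genes measured, 15 were higher in the ENCCs and 1 was lower, and with the ENCC spread alone the counts were 11 and 0. Without ENCC gut 3, 2 were lower. The median difference over the list was 1.08. The mean score over the list was 0.36, -0.39, 0.18 and 0.49 in the ENCCs and -0.98 to -0.84 in the whole guts, so that gut 3 again lay closest to the whole guts. Foxd3 had the largest difference of the list, followed by Sox2, a factor of neural progenitors. Sox2 scored 1.05, -0.57, 1.70 and 1.76 in the ENCCs and -2.16, -2.06 and -1.91 in the whole guts, a difference of 3.04 ± 0.33 (SE, adjusted p = 7.24e-06 and 0.000265). Hand2, needed for the differentiation of enteric neurons, scored -0.43, -0.25, -1.16 and -0.19 in the ENCCs and -2.50, -2.34 and -2.22 in the whole guts and differed by 1.84 ± 0.19 (SE, adjusted p = 3.6e-06 and 0.00277).

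Both parts of the GDNF receptor complex were higher. Gfra1, which binds GDNF and presents it to Ret, scored -0.10, -1.42, 0.29 and 0.74 in the ENCCs and -2.004, -1.92 and -1.79 in the whole guts, a difference of 1.79 ± 0.29 (SE, adjusted p = 0.000225 and 0.00615). L1cam, a cell adhesion molecule of migrating crest cells, differed by 1.75, the factor Tfap2a by 1.74 and the neurotrophin receptor Ngfr by 1.71, all called in both fits. For Tfap2a only 2 of its 3 probe sets were higher. Ednrb, the receptor of endothelin 3, had overlapping groups. It scored 1.45, 0.02, 0.34 and 0.91 in the ENCCs and -0.04, 0.06 and 0.25 in the whole guts. The difference of 0.61 ± 0.23 (SE, adjusted p = 0.042 and 0.297) was called with 1 spread and not with the ENCC spread alone. Leaving out 1 array ended that call for 10 of the 12 arrays, with adjusted p up to 0.133 and a difference of 0.35 without ENCC gut 2. Snai2, a factor of the epithelial-mesenchymal transition, was the gene of the list that was lower, by -0.87 ± 0.19 (SE, adjusted p = 0.00219 and 0.118), a call that the ENCC spread alone did not give. Snai2 is also expressed in mesenchyme.

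Genes of differentiating neurons were mostly higher. Of 28 measured, 22 were higher and 2 lower; with the ENCC spread alone 8 were higher and 1 lower. The median difference was 0.87. The list mean was -0.63, -1.04, -0.29 and -0.11 in the ENCCs against -1.47 to -1.42 in the whole guts, with no overlap. Dpysl3, a protein of growing axons, scored 0.31, -1.09, -0.05 and 0.87 in the ENCCs and -3.14, -3.08 and -2.9997 in the whole guts, a difference of 3.09 ± 0.27 (SE, adjusted p = 1.15e-06 and 0.000196), and all 3 of its probe sets were higher. Gap43, a growth cone protein, scored -1.03, -1.65, 0.72 and 0.77 in the ENCCs and -2.56, -2.52 and -2.46 in the whole guts, and differed by 2.22 ± 0.37 (SE, adjusted p = 0.000254 and 0.00241); guts 2 and 3 were well below guts 8 and 9. Celf3, an RNA-binding protein of neurons, showed the same division of the arrays and differed by 2.30 ± 0.40 (SE, adjusted p = 0.000381 and 0.00238). Among genes widely used as neuronal markers, Uchl1 differed by 1.73 ± 0.19 (SE, adjusted p = 7.12e-06 and 0.00435) and Tubb3, the neuronal tubulin, by 1.18 ± 0.21 (SE, adjusted p = 0.000392 and 0.0389).

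A pair of neuronal genes went the other way. Isl1, a homeodomain factor of neurons and also of pancreatic, endocrine and pyloric cells, scored 0.01, -0.55, 0.41 and 0.92 in the ENCCs and 1.58, 1.76 and 1.97 in the whole guts, and was lower by -1.59 ± 0.23 (SE, adjusted p = 6.98e-05 and 0.00839). Nefm, a neurofilament subunit, differed by -0.67 ± 0.22 (SE, adjusted p = 0.0239 and 0.237), a call lost with the ENCC spread alone and without ENCC gut 9, where the difference was -0.42 (adjusted p = 0.0628).

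Synaptic and channel genes followed the neuronal genes. Of 22 synapse genes, 14 were higher and 0 lower with 1 spread, and 6 and 0 with the ENCC spread alone. Snap25, a membrane fusion protein of synaptic vesicles, scored -1.17, -0.91, -0.18 and -0.72 in the ENCCs and -2.27, -2.18 and -2.12 in the whole guts, a difference of 1.44 ± 0.18 (SE, adjusted p = 2.1e-05 and 0.0124). The vesicle proteins Syn2, Syt1 and Syn1 differed by 1.36, 1.34 and 1.25. Of 22 ion channel genes, 14 were higher and 2 lower, against 7 and 1 with the ENCC spread alone. Kcnq3, a subunit of the potassium channel that carries the M current, scored 0.96, -0.05, -1.27 and 1.49 in the ENCCs and -3.44, -3.37 and -3.33 in the whole guts, a difference of 3.66 ± 0.37 (SE, adjusted p = 3.16e-06 and 0.000144). Htr3a, the serotonin-gated channel, scored -0.06, -0.15, 1.41 and 1.82 in the ENCCs and -2.35, -2.28 and -2.16 in the whole guts, a difference of 3.02 ± 0.31 (SE, adjusted p = 4.32e-06 and 0.000255); guts 8 and 9 stood above guts 2 and 3. The N-type calcium channel Cacna1b differed by 2.55. Kcnk1, a potassium leak channel that epithelia also express, was lower, by -2.01 ± 0.18 (SE, adjusted p = 1.59e-06 and 0.00151). Kcnd3 was lower by -0.51 ± 0.18 (SE, adjusted p = 0.0327 and 0.361), with 2 of its 4 probe sets higher. Its call was lost in 7 of the 12 fits that left out 1 array, with adjusted p up to 0.0643, and the count lower was then 1 (without ENCC gut 2, 8 or 9 or whole gut 1, 2, 4 or 5). Leaving out ENCC gut 9 made 1 synapse gene lower.

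Transmitter genes were higher in part. Of 23 measured, 8 were higher, 1 was lower and 14 passed in neither direction; with the ENCC spread alone 6 were higher and 1 lower. Npy, neuropeptide Y, scored 1.28, 0.48, 0.67 and 0.54 in the ENCCs and -2.40, -2.21 and -2.18 in the whole guts, a difference of 2.97 ± 0.17 (SE, adjusted p = 5.52e-08 and 0.000161). Penk, the enkephalin precursor, differed by 1.98 ± 0.28 (SE, adjusted p = 6.77e-05 and 0.00285) and Gal, galanin, by 1.63 ± 0.14 (SE, adjusted p = 1e-06 and 0.00519). Nos1, the nitric oxide synthase of inhibitory motor neurons, scored 0.81, -0.12, -0.68 and 0.29 in the ENCCs and -1.94, -1.86 and -1.72 in the whole guts and differed by 1.93 ± 0.22 (SE, adjusted p = 1.15e-05 and 0.00244). Vip, the peptide that many Nos1 neurons also hold, differed by 1.16 ± 0.16 (SE, adjusted p = 6.69e-05 and 0.036). The somatostatin gene Sst, a peptide of neurons and of endocrine cells, was lower by -1.56 ± 0.52 (SE, adjusted p = 0.0255 and 0.0363), with overlapping groups, and with 1 weight a group it was not called (adjusted p = 0.363). Without ENCC gut 8 that difference was -0.78 (adjusted p = 0.0651) and no gene of the list was lower; the count lower was 2 without ENCC gut 2 or 9 and 4 without ENCC gut 3.

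Glial genes split. Of 16 glial and Schwann cell genes, 7 were higher and 2 lower, and 7 and 1 with the ENCC spread alone; without ENCC gut 3 the count higher was 11. Cdh19, a cadherin of Schwann cell precursors, scored 0.44, -0.66, 1.23 and 1.98 in the ENCCs and -3.18, -3.13 and -3.07 in the whole guts, and had one of the largest differences of any gene, 3.88 ± 0.34 (SE, adjusted p = 1.29e-06 and 6.49e-05). Cnp, an enzyme of myelinating and satellite glia, differed by 2.43 ± 0.19 (SE, adjusted p = 5.76e-07 and 0.000461), the small heat shock protein Cryab by 2.23 ± 0.22 (SE, adjusted p = 3.16e-06 and 0.000906). S100b, the calcium-binding protein of enteric glia, scored -0.28, -1.06, 1.04 and 1.74 in the ENCCs and -1.66, -1.59 and -1.55 in the whole guts and differed by 1.96 ± 0.38 (SE, adjusted p = 0.000829 and 0.00599); guts 8 and 9 were high and gut 3 nearest to the whole guts. Fabp7, another gene of early glia, scored -0.03, -1.13, -0.50 and -0.52 in the ENCCs and -0.99, -0.97 and -0.81 in the whole guts and did not pass, with a difference of 0.40 ± 0.19 (SE, adjusted p = 0.0967 and 0.494); without ENCC gut 3 it did, at 0.59 (adjusted p = 0.00131). Sostdc1, a secreted antagonist of BMP and Wnt signals, and Mbp, myelin basic protein, were lower by -1.24 ± 0.17 (SE, adjusted p = 6.35e-05 and 0.0265) and -0.71 ± 0.23 (SE, adjusted p = 0.0198 and 0.217). Without ENCC gut 9 Mbp differed by -0.45 (adjusted p = 0.0519), which left 1 gene lower.

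**Figure D2:**
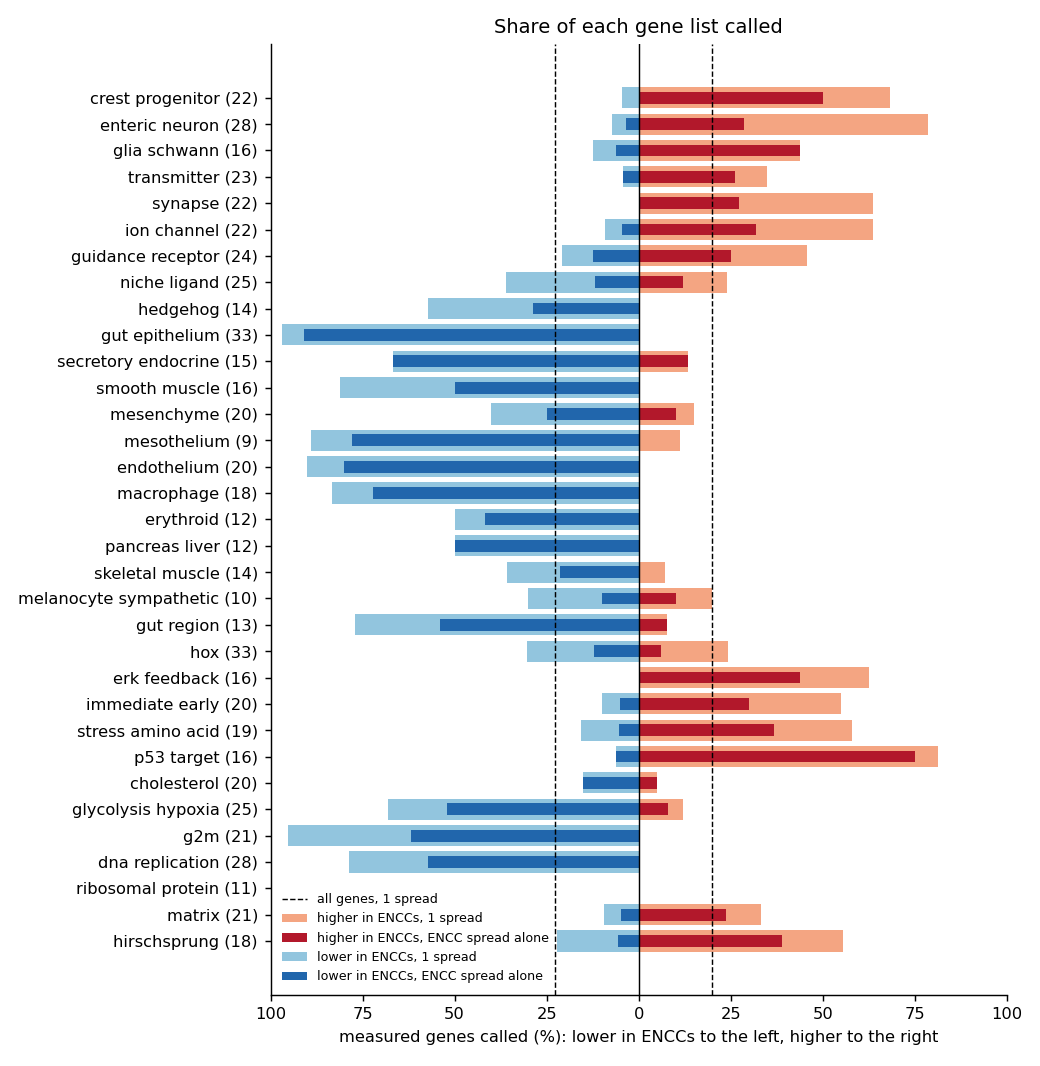
Share of the measured genes of 33 gene lists (vertical axis, number measured in brackets) called lower (bars to the left) or higher (to the right) in ENCCs, in percent: wide pale bars with 1 spread for both groups, narrow dark bars with the spread of the ENCC arrays alone. Dashed lines are the shares of all genes called with 1 spread, 22.8% lower and 19.8% higher; epithelial, endothelial and mitotic lists reach far past the left line, crest, neuronal and p53 target lists past the right one.

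Genes of the gut lining were lower almost without exception. Of 33 epithelial genes, 32 were lower and 0 higher in the ENCCs, and 30 and 0 with the ENCC spread alone, with a median difference of -2.57. Lgals4, galectin 4, a lectin of intestinal epithelium, scored -0.05, 0.43, -2.73 and -0.17 in the ENCCs and 3.65, 3.87 and 3.92 in the whole guts, a difference of -4.47 ± 0.42 (SE, adjusted p = 2.1e-06 and 5.24e-05), the largest in size of all genes tested. Cdh1, E-cadherin, scored -1.46, 0.92, -1.20 and -0.94 in the ENCCs and 2.93, 2.97 and 3.04 in the whole guts, a difference of -3.64 ± 0.33 (SE, adjusted p = 1.54e-06 and 0.000112). Vil1, villin of the brush border, differed by -3.46, and the transcription factors Foxa1 and Hnf4a by -3.18 and -2.27. In gut 3 the mean over the list was 0.34, the highest of the ENCC arrays, which otherwise lay between -0.44 and -0.16; the whole guts lay between 2.34 and 2.38. In bulk RNA fewer cells of a type and less of its RNA per cell cannot be told apart.

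The fatty acid binding proteins of the enterocyte, Fabp1 and Fabp2, were among the 15 largest differences in the lower direction. Fabp1 scored -0.90, 0.53, -0.99 and -0.64 in the ENCCs and 3.07, 3.12 and 3.14 in the whole guts, a difference of -3.62 ± 0.24 (SE, adjusted p = 1.26e-07 and 6.13e-05) with both probe sets lower. Fabp2 scored -1.26, 0.47, -0.39 and -0.26 in the ENCCs and 3.42, 3.45 and 3.51 in the whole guts, a difference of -3.81 ± 0.24 (SE, adjusted p = 9.82e-08 and 4.9e-05). Their promoters are shown because they hold the letters TTTATNG, read on both strands, a form of the site that the intestinal CDX factors bind. Capitals mark the match in the 250 bases before each start, 5′ to 3′ on the gene's strand, from RefSeq on GRCm38.p6, for Fabp1 at chr6:71199629-71199878 and Fabp2 at chr3:122894822-122895071, both on the plus strand.
Fabp1: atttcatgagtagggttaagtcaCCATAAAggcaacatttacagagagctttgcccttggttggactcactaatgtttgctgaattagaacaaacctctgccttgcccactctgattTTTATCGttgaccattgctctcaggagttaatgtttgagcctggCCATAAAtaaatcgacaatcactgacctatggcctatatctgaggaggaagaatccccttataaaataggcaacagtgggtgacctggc
Fabp2: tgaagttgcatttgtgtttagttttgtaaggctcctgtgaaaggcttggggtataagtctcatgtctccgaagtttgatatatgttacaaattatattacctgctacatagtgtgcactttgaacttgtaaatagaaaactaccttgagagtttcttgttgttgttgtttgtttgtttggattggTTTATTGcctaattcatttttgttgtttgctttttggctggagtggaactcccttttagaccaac
The Fabp1 promoter held 3 matches and the Fabp2 promoter 1. Of the 15 genes with the largest lower differences, 10 had a promoter in the RefSeq table, and 3 of these, Clrn3, Fabp2 and Fabp1, held the letters. So did 7 of 26 epithelial genes (26.9%), against 12.5% of all 27025 genes in that table, in a window from 250 bases before to 50 after the start. The letters were also in 4 of 38 neuron and synapse genes (10.5%) and in 1 of 10 promoters of the largest higher differences. A match is a run of letters and not a measured binding site.

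A neuronal promoter is shown for comparison. Syn1, the vesicle protein synapsin I, holds TTCAGCACC, one arm of the RE1 site through which the repressor REST keeps neuronal genes off outside neurons. The match stands in capitals in the 250 bases before its start, at chrX:20920919-20921168 on the minus strand of GRCm38.p6, from RefSeq.
Syn1: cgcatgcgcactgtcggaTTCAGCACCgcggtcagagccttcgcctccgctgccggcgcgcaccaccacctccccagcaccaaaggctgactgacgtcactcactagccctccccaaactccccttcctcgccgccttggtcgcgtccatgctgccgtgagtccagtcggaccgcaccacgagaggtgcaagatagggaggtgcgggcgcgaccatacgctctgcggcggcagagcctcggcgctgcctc
Syn1 itself scored -1.50, -0.87, -1.31 and -0.58 in the ENCCs and -2.45, -2.36 and -2.12 in the whole guts, and differed by 1.25 ± 0.18 (SE, adjusted p = 8.66e-05 and 0.0263). The letters occurred in 4 of 38 neuron and synapse genes with a promoter in the table (10.5%), Scg2, Nsg2, Syn1 and Unc13a, against 0.433% of all genes. The E-box CAGCTG, which reads the same on both strands, occurred in 17 of the 38 (44.7%) against 18.3% of all genes, and in 3 of 10 promoters each of the 15 largest higher and the 15 largest lower differences. In all 7 motifs were searched on both strands. The GATA site AGATAAG occurred in 1 of 26 epithelial genes (3.85%) and 3 of the 38 neuron and synapse genes (7.89%). Over all genes its share was 3.5%. The HNF4 site CAAAGTCC, one arm of the full site, occurred in 2 epithelial genes (7.69%) and 0 of the 38, against 1.63%. The homeodomain site TAATTA occurred in 3 of the 38 neuron and synapse genes (7.89%) against 6.12%, and the SOX site AACAAAG in 5 (13.2%) against 6.68%. Of the 26 epithelial genes, 1 held the homeodomain site (3.85%), 2 the SOX site (7.69%), 6 the E-box (23.1%) and 0 the RE1 letters. SOX letters were in 0 of 10 promoters of the largest higher differences and 2 of 10 of the largest lower ones.

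Secretory and endocrine genes of the epithelium were lower with a pair of exceptions. Of 15, 10 were lower and 2 higher, with the same counts for the ENCC spread alone and 8 and 2 with 1 weight a group. Gcg, proglucagon, scored 2.61, -0.18, -0.16 and -1.71 in the ENCCs and 3.31, 3.54 and 3.65 in the whole guts, a difference of -3.36 ± 0.52 (SE, adjusted p = 0.000146 and 0.00045); gut 2 reached 2.61 and stood far above the other ENCC arrays. Spdef, a goblet cell factor, differed by -2.49 and Ghrl, ghrelin, by -2.26. The exceptions were Insm1, higher by 1.75 ± 0.30 (SE, adjusted p = 0.000309 and 0.00725), and Chga, chromogranin A, higher by 1.13 ± 0.23 (SE, adjusted p = 0.00099 and 0.0487); neurons as well as endocrine cells express both.

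Muscle, mesothelial, vascular and immune genes were lower too. Of 16 smooth muscle and pacemaker genes, 13 were lower and 0 higher (8 and 0 with the ENCC spread alone). Kit, the receptor of interstitial cells of Cajal, scored -1.39, -0.05, -1.57 and -1.56 in the ENCCs and 1.69, 1.79 and 1.93 in the whole guts, a difference of -2.94 ± 0.25 (SE, adjusted p = 8.73e-07 and 0.000214). Pgm5, a protein of muscle adhesions, differed by -3.25, and the contractile genes Actg2 and Myh11 by -2.49 and -2.22. Acta2, smooth muscle actin, which cultured cells of several types express, scored 0.11, 0.41, 1.08 and -0.52 in the ENCCs and 0.79, 0.95 and 1.07 in the whole guts and differed by -0.68 ± 0.23 (SE, adjusted p = 0.0293 and 0.243), with overlapping groups. Its call was lost without ENCC gut 2, ENCC gut 9 or whole gut 5, with a difference of -0.41 (adjusted p = 0.087) without gut 9. Without ENCC gut 2 or gut 3, 1 smooth muscle gene was higher.

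Of 9 mesothelial genes, 8 were lower and 1 was higher (7 and 0 with the ENCC spread alone). Bnc1, a factor of mesothelium, differed by -3.20 ± 0.33 (SE, adjusted p = 4.22e-06 and 0.000209) and Upk3b, a surface protein of it, by -2.44 ± 0.21 (SE, adjusted p = 1.21e-06 and 0.000491); Lrrn4 differed by -2.86. Tbx18 was the gene that was higher, by 0.65 ± 0.20 (SE, adjusted p = 0.017 and 0.247), and by 0.43 without ENCC gut 2. Of 20 endothelial genes, 18 were lower and 0 higher (16 and 0). Pecam1, the endothelial adhesion molecule CD31, scored -0.78, -0.21, -0.12 and -2.26 in the ENCCs and 2.15, 2.21 and 2.24 in the whole guts, a difference of -3.05 ± 0.31 (SE, adjusted p = 3.36e-06 and 0.000235); Plvap and Emcn differed by -2.87 and -2.85. Of 18 macrophage genes, 15 were lower and 0 higher (13 and 0). C1qa, a complement subunit made by macrophages, scored -0.49, 0.75, -0.37 and -1.70 in the ENCCs and 2.48, 2.51 and 2.61 in the whole guts, a difference of -2.97 ± 0.31 (SE, adjusted p = 4.69e-06 and 0.000267); Csf1r, the receptor on which macrophages depend, differed by -2.16, and Lcp1 and Tyrobp, of the leukocyte cytoskeleton and of receptor signalling, by -2.67 and -2.66. Gut 3 had the highest ENCC mean for these lists: 0.33 for mesothelium, 0.49 for endothelium and 0.40 for macrophages, where the other ENCC arrays were at or below -0.10, 0.02 and -0.13 and the whole guts at or above 1.41, 1.65 and 1.54.

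Genes of cells that a dissected gut can carry along were partly lower. Of 12 erythroid genes 6 were lower and 0 higher, led by the embryonic globin Hbb-y (-3.58), the embryonic globin Hba-x (-1.83) and the haem enzyme Alas2 (-1.70). Of 12 pancreas and liver genes 6 were lower and 0 higher, led by Cel, the carboxyl ester lipase of the pancreas, Ins2, insulin (-1.90), and Fgb, a fibrinogen chain of the liver (-1.76). Ins2 and Cel varied among the whole guts, from 1.15 to 2.13 and from 1.07 to 2.31. With 1 weight a group the erythroid genes lower were 3, and Hba-x, Ins2 and Cel were not called (adjusted p = 0.0777, 0.187 and 0.109). Of 14 skeletal muscle genes 5 were lower, led by Tnnt1 (-3.02), Actc1 (-2.17) and Acta1 (-1.49), and Myf5 was higher by 1.02 ± 0.19 (SE, adjusted p = 0.000545 and 0.0634). With the ENCC spread alone 5 erythroid, 6 pancreas and liver and 3 skeletal muscle genes were lower and 0 were higher. Leaving out ENCC gut 8 made 4 erythroid genes higher and leaving out whole gut 2 made 1 higher, and without ENCC gut 2 the skeletal muscle genes higher were 2.

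Fibroblast and mesenchyme genes did not move together. Of 20, 8 were lower and 3 higher (5 and 2 with the ENCC spread alone). Tcf21 and Foxf1, factors of gut mesenchyme, were lower by -2.63 ± 0.16 (SE, adjusted p = 9.82e-08 and 0.000267) and -2.14 ± 0.24 (SE, adjusted p = 9.62e-06 and 0.00137), and the proteoglycan Lum by -1.88. Postn, periostin, a matrix protein, scored 0.71, -0.48, 1.59 and 0.28 in the ENCCs and -2.56, -2.49 and -2.44 in the whole guts, a difference of 3.02 ± 0.28 (SE, adjusted p = 1.67e-06 and 0.000214) in the opposite direction. Prrx1, a mesenchymal factor, was also higher, by 1.69 ± 0.18 (SE, adjusted p = 5.07e-06 and 0.00467) over 6 probe sets, and the third was Col1a1 (0.47), a call that the ENCC spread alone and 10 of the 12 fits without 1 array did not give. Without ENCC gut 3 the mesenchyme genes higher were 6. Of 21 matrix genes 7 were higher and 2 lower (5 and 1), led by the laminin chain Lama2 at 2.48 ± 0.19 (SE, adjusted p = 3.83e-07 and 0.000384) and by Thbs1 (1.72) and Sparc (1.54); Fn1, the fibronectin gene, was higher by 1.39, and the basement membrane protein Nid2 was lower by -1.83. Mfap5, of the microfibrils, was lower by -1.12 ± 0.25 (SE, adjusted p = 0.00215 and 0.052). Without ENCC gut 2 the matrix genes lower were 4. With 1 weight a group the matrix genes higher were 3, and Fn1 was not called (adjusted p = 0.107).

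**Figure D3:**
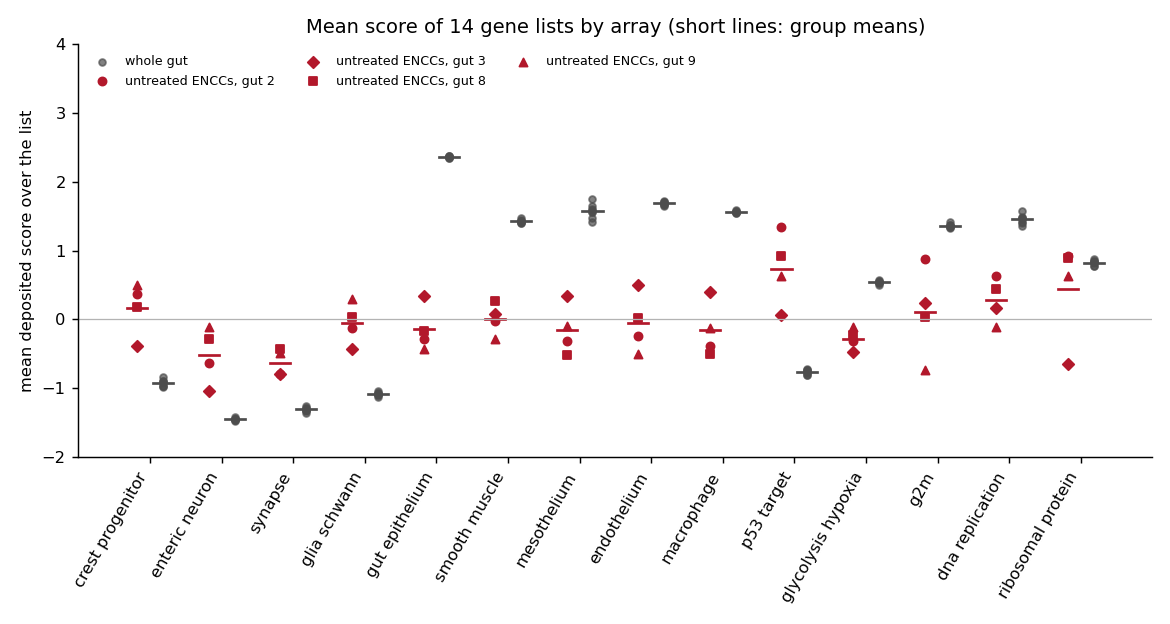
Mean deposited score over the measured genes of 14 gene lists (horizontal axis) on each array: red symbols are the 4 untreated ENCC arrays, with 1 shape a gut, grey points the 8 whole guts, short lines the group means. The ENCC array of gut 3 (diamonds) has the lowest crest and neuronal means, the highest epithelial, mesothelial, endothelial and macrophage means of the ENCC arrays, and a ribosomal protein mean of -0.65.

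Ligands that reach the crest cells from the gut wall, with the genes that process or oppose them, were called in both directions. Of 25 niche ligand genes 9 were lower and 6 higher, and 3 and 3 with the ENCC spread alone. The shares higher with 1 spread and both shares with the ENCC spread alone were close to those of all genes. Edn3, endothelin 3, scored -0.61, 0.71, 0.58 and -0.24 in the ENCCs and 1.09, 1.20 and 1.39 in the whole guts and was lower by -1.10 ± 0.23 (SE, adjusted p = 0.00132 and 0.0561), a call that the ENCC spread alone did not give. Ece1, the enzyme that cleaves endothelins to their active form, scored -0.51, -0.55, -0.70 and -1.38 in the ENCCs and 0.90, 0.97 and 1.01 in the whole guts, a difference of -1.75 ± 0.18 (SE, adjusted p = 3.38e-06 and 0.00374). The BMP antagonist Grem1, Fgf10 and Bmp4 differed by -1.68, -1.17 and -1.06, and Fgf10 was not called with 1 weight a group (adjusted p = 0.081).

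GDNF family ligands did not follow one direction. Gdnf scored 0.24, -0.59, -0.72 and 1.11 in the ENCCs and -1.16, -0.97 and -0.21 in the whole guts; the groups overlapped and the difference was 0.90 ± 0.30 (SE, adjusted p = 0.0259 and 0.13). Without ENCC gut 9 it was 0.54 (adjusted p = 0.0877), and the call was also lost without ENCC gut 2. Nrtn, neurturin, was lower by -0.94 ± 0.30 (SE, adjusted p = 0.0188 and 0.121), and by -0.61 (adjusted p = 0.0669) without ENCC gut 9. Artn, artemin, scored -0.42, -0.71, 1.48 and 1.98 in the ENCCs and -1.75, -1.65 and -1.60 in the whole guts, and was higher by 2.24 ± 0.40 (SE, adjusted p = 0.000439 and 0.00275). Tnc, tenascin C, and Sema3c, a semaphorin, were higher by 2.04 ± 0.25 (SE, adjusted p = 1.81e-05 and 0.00195) and 1.80 ± 0.43 (SE, adjusted p = 0.00386 and 0.0134). The netrin gene Ntn1 and Wnt11 were higher by 1.11 ± 0.29 (SE, adjusted p = 0.00629 and 0.0652) and 0.94 ± 0.31 (SE, adjusted p = 0.0228 and 0.125); the call of Wnt11 was lost without ENCC gut 2 or 3 (adjusted p up to 0.0871).

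Hedgehog signalling runs from ligands in the epithelium to targets in the mesenchyme. Of 14 genes 8 were lower and 0 higher, and 4 and 0 with the ENCC spread alone; without ENCC gut 3, 1 was higher. The ligand Shh scored -1.23, 0.37, 0.57 and -1.59 in the ENCCs and 1.64, 1.85 and 2.09 in the whole guts, a difference of -2.31 ± 0.34 (SE, adjusted p = 8.97e-05 and 0.00143), and the ligand Ihh differed by -1.73. Gli1, a target whose level follows the pathway's activity, differed by -1.78 ± 0.30 (SE, adjusted p = 0.000237 and 0.00629), and the receptor and target Ptch1 by -1.11 ± 0.15 (SE, adjusted p = 5.73e-05 and 0.0424), where 1 of 3 probe sets was higher.

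Receptors for guidance and migration cues were more often higher than lower. Of 24, 11 were higher and 5 lower (6 and 3 with the ENCC spread alone, 7 and 1 with 1 weight a group). The share lower was close to that of all genes with 1 spread (22.8%) and with the ENCC spread alone (11.9%). Cdh2, N-cadherin, scored 1.08, -0.96, 0.75 and 1.39 in the ENCCs and -1.83, -1.80 and -1.65 in the whole guts, a difference of 2.35 ± 0.32 (SE, adjusted p = 5.35e-05 and 0.0012). Nrp1, a semaphorin receptor, scored 0.70, -0.04, 0.81 and 1.08 in the ENCCs and -1.66, -1.50 and -1.36 in the whole guts, a difference of 2.15 ± 0.20 (SE, adjusted p = 1.53e-06 and 0.000999) with all 4 probe sets higher. Celsr3, a cadherin that steers axons, and Dcc, the netrin receptor, were higher by 1.84 and 1.47. Robo2, a Slit receptor, was lower by -2.51 ± 0.41 (SE, adjusted p = 0.000217 and 0.00104), Unc5c, a netrin receptor, by -1.44, and Erbb2, a co-receptor of neuregulin signalling, by -1.28. Nrp2, the relative of Nrp1, and Cxcr4, a chemokine receptor, were lower by -0.85 ± 0.25 (SE, adjusted p = 0.0119 and 0.143) and -0.52 ± 0.18 (SE, adjusted p = 0.0278 and 0.351). The call of Cxcr4 was lost without ENCC gut 2, whole gut 3 or whole gut 4 (adjusted p up to 0.0695). With 1 weight a group Robo2 and Unc5c were not called (adjusted p = 0.0788 and 0.15). Robo2 varied among the whole guts as well, from 0.91 to 2.21.

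Of 18 Hirschsprung disease genes, 10 were higher and 4 lower, and 7 and 1 with the ENCC spread alone. The higher genes included Ret, Gfra1, L1cam, Sox10 and Ednrb, which act in the crest cell, and also the ligands Gdnf, Sema3c and Nrg3, a neuregulin, the last at 1.19 ± 0.28 (SE, adjusted p = 0.00304 and 0.0476). The 4 lower ones were the ligands Edn3, Nrtn and Sema3d and the enzyme Ece1. The list shares genes with the crest and niche lists, so that it is no separate evidence. Sema3d, a semaphorin, differed by -0.93 ± 0.24 (SE, adjusted p = 0.00593 and 0.107).

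Hox genes encode position along the body axis. Over all 33 measured, 8 were higher and 10 lower, close to the background, and 2 and 4 with the ENCC spread alone. Of the 13 in paralogue groups 1 to 5, the anterior ones, 7 were higher and 1 lower (2 and 0). Of 6 in groups 6 to 8, 1 was higher and 2 were lower (0 and 1). Of 14 in groups 9 to 13, the posterior ones, 0 were higher and 7 lower (0 and 3). This division was made after the values were seen, and no difference between the sets was tested. Several of these calls were marginal: the lower ones of groups 9 to 13 were 4 without ENCC gut 2 or without any of whole guts 2, 3, 4, 5, 7 and 8, and 6 over the whole list. The lower call of groups 1 to 5 was lost in 10 of the 12 fits without 1 array, and without ENCC gut 3 the higher calls of groups 6 to 8 were 2. Hoxb2 scored 0.86, -0.49, 0.35 and -0.63 in the ENCCs and -1.99, -1.75 and -1.50 in the whole guts, a difference of 1.76 ± 0.25 (SE, adjusted p = 6.3e-05 and 0.00509). Hoxd3 scored 0.97, -1.23, 0.55 and 0.37 in the ENCCs and -1.67, -1.55 and -1.40 in the whole guts, a difference of 1.70 ± 0.31 (SE, adjusted p = 0.000447 and 0.00851). Hoxb7 was higher by 1.01 ± 0.28 (SE, adjusted p = 0.00938 and 0.0813), with overlapping groups. At the posterior end Hoxa11 differed by -2.14 ± 0.47 (SE, adjusted p = 0.00211 and 0.00582), and by -1.40 without ENCC gut 8, where it scored -3.18. Hoxd10 differed by -1.995 ± 0.38 (SE, adjusted p = 0.000665 and 0.00483). Hoxb13, the most posterior gene of its cluster, varied among the whole guts more than any other Hox gene named here, from -1.13 to 2.52, and was lower by -1.64 ± 0.58 (SE, adjusted p = 0.0333 and 0.00903), a call lost in 8 of the 12 fits without 1 array and with 1 weight a group (adjusted p = 0.744).

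**Figure D4:**
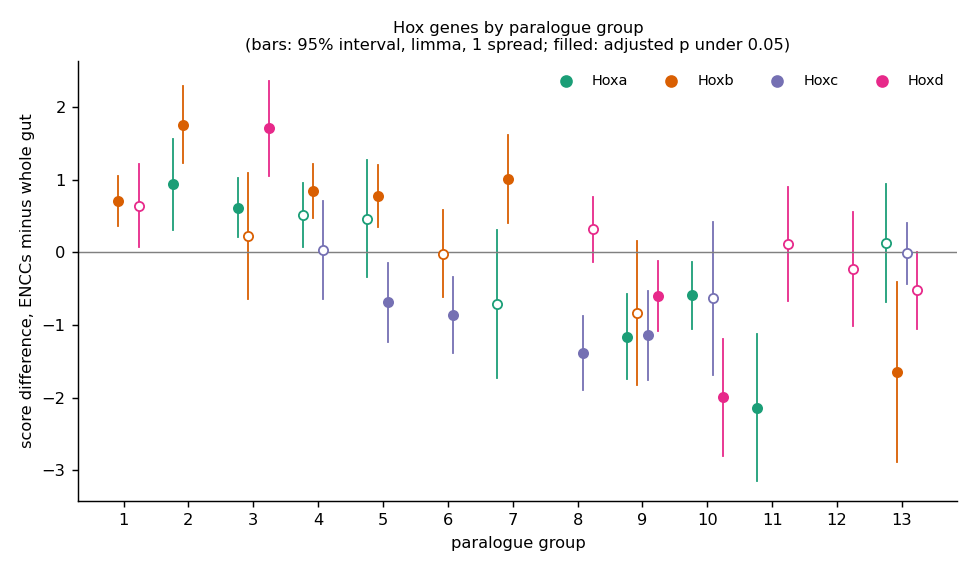
Score difference, ENCCs minus whole gut (vertical axis, deposited score units), of 33 Hox genes by paralogue group (horizontal axis, 1 anterior to 13 posterior), coloured by cluster, with 95% intervals from limma with 1 spread for both groups; filled points have an adjusted p under 0.05. Of groups 1 to 5, 7 of 13 genes are called higher, and of groups 9 to 13, 7 of 14 are called lower.

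Regional factors of the gut itself were lower: of 13, 10 were lower and 1 was higher (7 and 1 with the ENCC spread alone). Cdx1 scored 0.72, -0.05, -1.43 and 1.47 in the ENCCs and 2.77, 2.88 and 2.91 in the whole guts, a difference of -2.68 ± 0.37 (SE, adjusted p = 5.57e-05 and 0.000696). The factors Isx, Gata6 and Nkx2-3 differed by -2.22, -2.17 and -2.001. Tbx3, a T-box factor that neural crest derivatives also express, was the one that was higher, by 1.57 ± 0.20 (SE, adjusted p = 2.35e-05 and 0.00809) over 5 probe sets. Among 10 genes of the melanocyte and sympathetic branches of the crest, 2 were higher and 3 lower, near the background, and 1 and 1 with the ENCC spread alone. Mitf, the melanocyte factor, scored 0.88, 0.91, 0.73 and -0.03 in the ENCCs and -1.32, -1.27 and -1.15 in the whole guts, a difference of 1.86 ± 0.18 (SE, adjusted p = 2.96e-06 and 0.00251), while Dct, an enzyme of melanin synthesis, was lower by -1.82 ± 0.36 (SE, adjusted p = 0.000997 and 0.00795). The sympathetic factors Hand1 and Gata3 were lower by -0.74 ± 0.18 (SE, adjusted p = 0.00397 and 0.18) and -0.63 ± 0.18 (SE, adjusted p = 0.013 and 0.256), and the sensory neuron factor Pou4f1 was higher by 0.96 ± 0.21 (SE, adjusted p = 0.00201 and 0.0824). The catecholamine enzyme Dbh was higher by 0.52 (adjusted p = 0.00902), a call that the ENCC spread alone did not give.

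Targets of p53, the factor that answers DNA damage and other stress, were mostly higher. Of 16, 13 were higher and 1 was lower, with a median difference of 1.80. The counts were 12 and 1 with the ENCC spread alone and 11 and 0 with 1 weight a group. The list mean was 1.34, 0.06, 0.92 and 0.63 in the ENCCs and -0.81 to -0.72 in the whole guts. Eda2r, a receptor of the TNF family, scored 1.63, 0.45, 0.97 and 1.22 in the ENCCs and -2.07, -1.99 and -1.86 in the whole guts, a difference of 3.05 ± 0.20 (SE, adjusted p = 1.09e-07 and 0.00016). Bbc3, the death-promoting protein PUMA, scored 1.07, 0.07, 2.26 and 0.50 in the ENCCs and -1.65, -1.39 and -1.24 in the whole guts, a difference of 2.39 ± 0.30 (SE, adjusted p = 2.57e-05 and 0.000916). Cdkn1a, the cell cycle inhibitor p21, scored 1.18, -0.76, 1.18 and 1.15 in the ENCCs and -1.30, -1.16 and -1.08 in the whole guts, a difference of 1.85 ± 0.30 (SE, adjusted p = 0.000213 and 0.00522); guts 2, 8 and 9 agreed closely and gut 3 lay nearest to the whole guts. Phlda3 and Ccng1 differed by 2.32 and 2.24. Perp, an adhesion protein of epithelial desmosomes as well as a p53 target, was the gene that was lower, by -1.19 ± 0.29 (SE, adjusted p = 0.0041 and 0.0485), a call lost with 1 weight a group (adjusted p = 0.12). Cdkn2a, whose alternative product p19Arf stabilises p53, was among the 15 largest higher differences: it scored 0.85, 0.27, 1.15 and 1.14 in the ENCCs and -2.57, -2.55 and -2.47 in the whole guts, a difference of 3.38 ± 0.18 (SE, adjusted p = 3.73e-08 and 6.3e-05).

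Cell division genes were lower nearly throughout. Of 21 genes of mitosis and G2, 20 were lower and 0 higher (13 and 0 with the ENCC spread alone), with a median difference of -1.35. Of 28 DNA replication genes 22 were lower and 0 higher (16 and 0), with a median of -1.29. The mitotic mean spread widely over the ENCC arrays, at 0.88, 0.23, 0.04 and -0.74, against 1.33 to 1.42 in the whole guts; gut 2 was highest and gut 9 lowest. Aurkb, a mitotic kinase, scored 0.95, 0.04, 0.29 and -0.95 in the ENCCs and 1.67, 1.74 and 1.82 in the whole guts, a difference of -1.65 ± 0.26 (SE, adjusted p = 0.000154 and 0.00811). Ccna2, cyclin A2, and Plk1, a mitotic kinase, differed by -1.61 and -1.49. Mki67, the proliferation marker Ki-67, scored 1.15, 0.51, -0.24 and -0.67 in the ENCCs and 1.52, 1.54 and 1.59 in the whole guts, a difference of -1.36 ± 0.26 (SE, adjusted p = 0.000803 and 0.0245). Cdc6, which loads the replicative helicase, differed by -1.86 ± 0.32 (SE, adjusted p = 0.000358 and 0.00575), and Mcm2, a subunit of that helicase, by -1.70 ± 0.26 (SE, adjusted p = 0.000105 and 0.00656). Rfc5 and Rfc2, subunits of the clamp loader, differed by -1.84 and -1.83. Ccnd1, cyclin D1, which acts at the entry to the cycle, went the other way: it scored 0.79, -0.66, 1.30 and 1.28 in the ENCCs and -1.40, -1.37 and -1.31 in the whole guts, a difference of 2.04 ± 0.29 (SE, adjusted p = 7.08e-05 and 0.00251) with all 3 probe sets higher.

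Ccnd1 also belongs to the genes that the ERK pathway induces, which were higher. Of 16 ERK feedback and target genes 10 were higher and 0 lower (7 and 0 with the ENCC spread alone). Spry2, an inhibitor that ERK signalling itself induces, scored 0.86, -0.71, -0.01 and -0.87 in the ENCCs and -2.40, -2.25 and -2.01 in the whole guts, a difference of 2.05 ± 0.26 (SE, adjusted p = 2.83e-05 and 0.00203). Spry1, of the same family, ran from -2.26 in gut 9 to 1.95 in gut 2, so that gut 9 lay below all the whole guts, and the difference was 2.16 ± 0.51 (SE, adjusted p = 0.00359 and 0.00763). Etv5, an ETS factor, differed by 1.49.

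Immediate early genes were higher in part: of 20, 11 were higher and 2 lower (6 and 1). Jun scored 0.96, -0.11, 1.49 and 1.82 in the ENCCs and -1.24, -1.19 and -0.95 in the whole guts, a difference of 2.20 ± 0.27 (SE, adjusted p = 2.21e-05 and 0.00135); Junb and Fos differed by 1.97 and 1.78. Klf4, a factor also of gut epithelium, was lower by -1.74 ± 0.25 (SE, adjusted p = 8.19e-05 and 0.0058), and Klf2, also of endothelium, by -0.78 ± 0.17 (SE, adjusted p = 0.00192 and 0.154). Without ENCC gut 8 the count lower was 4.

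Of 19 genes of the amino acid and unfolded protein responses, 11 were higher and 3 lower (7 and 1 with the ENCC spread alone). Sesn2, an inhibitor of mTORC1 under stress and also a p53 target, scored 1.31, 0.42, 1.41 and 0.43 in the ENCCs and -1.44, -1.33 and -1.21 in the whole guts, a difference of 2.21 ± 0.21 (SE, adjusted p = 1.91e-06 and 0.000905). Dnajb9, a chaperone of the endoplasmic reticulum, differed by 2.12 ± 0.16 (SE, adjusted p = 4.61e-07 and 0.000902), and Trib3, a pseudokinase induced by Atf4, by 2.03 ± 0.24 (SE, adjusted p = 1.23e-05 and 0.00188). Shmt2, Xbp1 and Phgdh were lower by -1.27, -0.95 and -0.74; of these Shmt2 was called with the ENCC spread alone. Xbp1 was not called without ENCC gut 2 (adjusted p = 0.0533), Phgdh differed by -0.37 without ENCC gut 3, and the count lower was 5 without ENCC gut 8.

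Glycolysis and hypoxia genes were lower. Of 25, 17 were lower and 3 higher (13 and 2 with the ENCC spread alone), with a median difference of -1.30. Pgk1, an enzyme of glycolysis, scored -0.83, -0.90, 0.001 and -0.49 in the ENCCs and 1.01, 1.13 and 1.16 in the whole guts, a difference of -1.67 ± 0.18 (SE, adjusted p = 5.35e-06 and 0.00511). Ldha, which makes lactate, scored -1.12, -1.15, 0.03 and -0.17 in the ENCCs and 0.91, 1.01 and 1.04 in the whole guts, a difference of -1.59 ± 0.22 (SE, adjusted p = 5.57e-05 and 0.00838). All ENCC arrays lay below all whole guts for both genes. Ndrg1, induced by hypoxia, differed by -1.82 and Ankrd37 by -2.46, or -1.61 without ENCC gut 8. Without ENCC gut 3 the count higher was 5. The higher genes were Adm, adrenomedullin, at 1.94 ± 0.24 (SE, adjusted p = 2.11e-05 and 0.00258), Eno2, the neuronal enolase, at 1.17 ± 0.19 (SE, adjusted p = 0.000237 and 0.0383), and Hk1, the hexokinase of brain, at 0.63 ± 0.14 (SE, adjusted p = 0.00265 and 0.246).

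**Figure D5:**
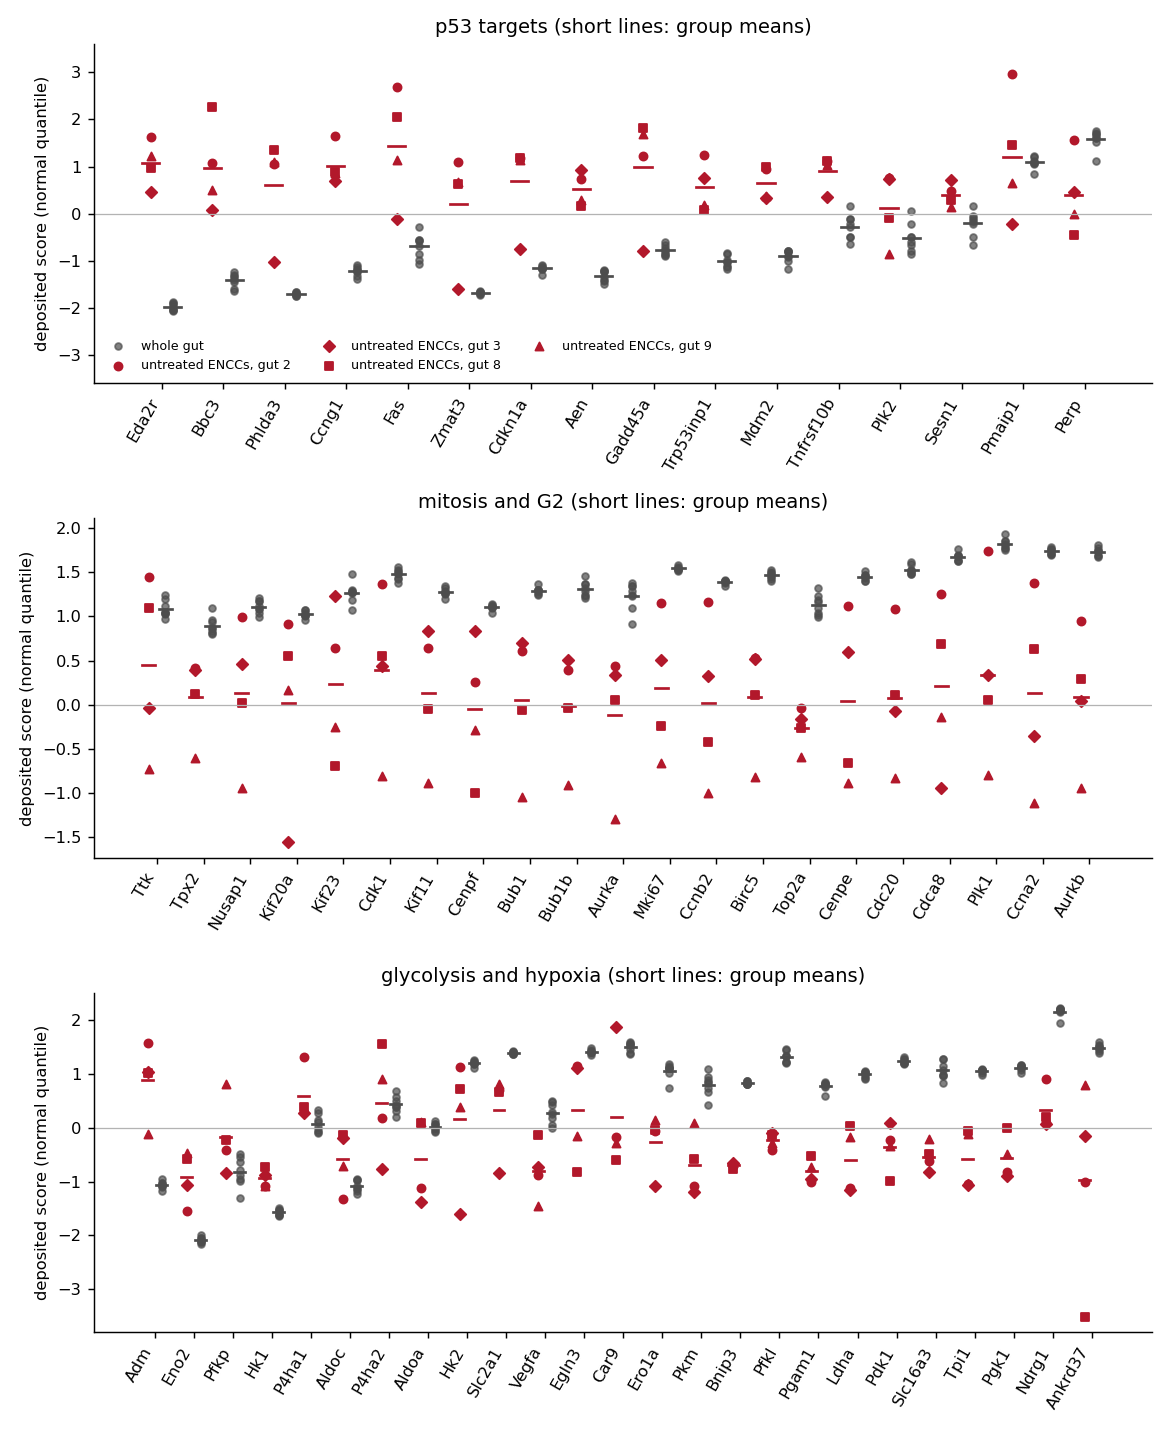
Deposited score (vertical axes, normal quantile without a unit) of the p53 target, mitosis and G2, and glycolysis and hypoxia genes on each array, genes ordered from the largest to the smallest difference: red symbols are the 4 untreated ENCC arrays, grey points the 8 whole guts, short lines the group means. Of 16 p53 targets 13 are called higher, of 21 mitotic genes 20 lower and of 25 glycolysis and hypoxia genes 17 lower in the ENCCs. The scores of the ENCC arrays spread far more than those of the whole guts in every panel.

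Few cholesterol genes and no ribosomal protein genes were called. Of 20 cholesterol genes 3 were lower and 1 was higher in both fits: Stard4, a sterol carrier, at -1.67 ± 0.20 (SE, adjusted p = 1.63e-05 and 0.00567), Insig1, which holds the sterol sensor back, at -1.51 ± 0.27 (SE, adjusted p = 0.000472 and 0.01), Ebp at -1.22 ± 0.24 (SE, adjusted p = 0.00104 and 0.034), and Hsd17b7, the higher one, at 1.34 ± 0.20 (SE, adjusted p = 0.000115 and 0.0201). With 1 weight a group the count lower was 1, with Insig1 and Ebp not called (adjusted p = 0.322 and 0.217). Without ENCC gut 2 or 3 the count higher was 3, and without ENCC gut 8 the count lower was 6. Of 11 ribosomal protein genes limma called 0 in either direction, with 1 spread or with the ENCC spread alone. At an unadjusted p under 0.05 the counts were 1 with 1 spread and 0 with the ENCC spread alone. Without ENCC gut 2, 8 or 9 the genes called lower were 2, 1 and 1. Their median difference was -0.33 with gut 3 and 0.04 without it.

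The 15 largest higher differences among genes whose arrays did not overlap and whose probe sets had 1 sign held several genes of no list. Cpt1c, a carnitine palmitoyltransferase relative of neurons, scored 1.40, 0.05, 0.37 and 1.57 in the ENCCs and -3.16, -3.02 and -2.94 in the whole guts, a difference of 3.88 ± 0.25 (SE, adjusted p = 1.15e-07 and 4.9e-05). Casp12, a caspase of the endoplasmic reticulum, scored 1.94, 0.20, 1.25 and 1.27 in the ENCCs and -2.73, -2.70 and -2.63 in the whole guts, a difference of 3.85 ± 0.24 (SE, adjusted p = 9.82e-08 and 4.9e-05). Ephx1, an epoxide hydrolase, scored 1.54, 0.66, 1.38 and 0.60 in the ENCCs and -2.66, -2.60 and -2.57 in the whole guts, and had a difference of 3.65 ± 0.19 (SE, adjusted p = 3.73e-08 and 4.9e-05). For all 3 genes every untreated ENCC array lay above every whole gut, as the rule that chose them asked. A score of 0 marks no level of expression. The GDNF-treated ENCCs of the batch had mean scores of -0.61, -0.85 and -0.83 for these genes. The inferred centring over treated and untreated ENCC arrays pushes the means of the 2 kinds to opposite sides of 0. These means are therefore no measure of a GDNF effect. The others of the 15 were the transporter Slco3a1 (3.63), the lysosomal membrane protein Scarb2 (3.61), Arhgef3 (3.59), the membrane insertion factor Emc3 (3.53), Map7d1 (3.52), the Golgi protein Golga2 (3.44), Fam155a (3.44) and Dtx3 (3.25), beside Cdh19, Foxd3, Kcnq3 and Cdkn2a.

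Of the 15 largest lower differences, Lgals4, Fabp1, Fabp2 and Cdh1 are described above. Cps1, the first enzyme of the urea cycle, which the intestinal epithelium expresses, scored -0.16, -0.57, -0.66 and -1.45 in the ENCCs and 3.12, 3.14 and 3.24 in the whole guts, a difference of -3.86 ± 0.20 (SE, adjusted p = 3.73e-08 and 4.9e-05). Akr1c12, an aldo-keto reductase, had the most even ENCC scores of the 30 genes, -0.14, 0.17, -0.15 and -0.36 in the ENCCs and 3.32, 3.53 and 3.65 in the whole guts, and differed by -3.62 ± 0.15 (SE, adjusted p = 8.09e-09 and 4.9e-05); its relative Akr1c19 differed by -3.74. Gipc2 scored -2.43, -0.14, -1.83 and 1.62 in the ENCCs and 3.46, 3.56 and 3.69 in the whole guts, with gut 9 far above the other ENCC arrays, a difference of -4.26 ± 0.53 (SE, adjusted p = 2.14e-05 and 0.000158). Clrn3 (-4.13), Rpia of the pentose phosphate pathway (-4.10), Wfdc15b (-4.03), the retinol dehydrogenase Sdr16c5 (-3.83), Fahd1 (-3.82), Ctrb1, a chymotrypsinogen of the pancreas (-3.64), and Aoc3, an amine oxidase of vessels and smooth muscle (-3.597), made up the rest. All 30 genes of both sets were called with the ENCC spread alone as well. Their choice by size and lack of overlap on the same arrays makes this likely, so that it is no separate evidence.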

How the data were processed

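RNA of 4 cultures of untreated ENCCs and 8 whole guts was labelled with biotin from 100 ng and hybridised to expression arrays of 45101 probe sets. Per the submitters' processing notes the authors used RMA; no version is named there. The deposited value is a score: within each array, the values are normal quantiles of the ranks (largest deviation 5e-06). The authors' step between RMA and this score is not recorded. The 7 ENCC RNAs hybridised in both batches include untreated and GDNF-treated wells. Over them, probe set means had an SD of 0.117 in the second batch, where independent values would give 0.378. The SDs of probe sets ran from 0.868 to 1.25 (10th to 90th percentile), where independent values would give 0.606 to 1.33. From this, centring and scaling over ENCC arrays of both kinds before ranking were inferred. Centring would cancel in a difference between groups of unranked values. By this inference ranking came after it, so that centring, scaling and ranking all shape the differences. The scores keep no brightness, so dim probe sets could not be filtered out.

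From these scores, 34945 probe sets with 1 gene symbol (932 with several and 9211 with none were left out, as were 64 controls, of which 13 were named) were averaged to 18193 genes. Of the IDs, 34741 were found in the RefSeq gene table, and 0 symbols needed an update. Groups were compared with limma 3.58.1 in R 4.3.3 (12 arrays, no covariates, Benjamini-Hochberg adjustment over all genes, threshold 0.05), and again with the whole gut mean subtracted and the spread of the ENCC arrays alone. The second fit counts no error of the whole gut mean. Depth does not apply to arrays; their number limits the precision.

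Genes were named by a rule: the 15 largest differences in each direction among called genes without overlap between groups and with probe sets of 1 sign; the 3 largest called differences in each direction of each of 34 lists (679 genes, 623 measured); called genes against most of their list; the 5 markers; and other list members for their known role, among them Ednrb, Tfap2a, Tubb3, Gap43, Acta2, Cdkn1a, Mki67 and Dbh. The genes, the lists and the comparison itself were chosen with earlier results of these data known. List genes without a measured value were not analysed here. Alternatives were the median of probe sets, 1 weight a group, robust moderation, percentile ranks, all 16 arrays of the batch, single probe sets, a stricter threshold and each array left out.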

Additional observations from a re-analysis of the deposited data

Results flagged for a closer look

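Among 404 sets of scores, 1 for each group and named gene other than Xist and Kdm5d, 35 had an array far from the rest, 27 of them in the whole guts and 8 in the ENCCs. Chance alone sets 1 array apart in about 1 of 20 such sets. Each value is given with the range of the other arrays of its group. Whole gut 4 was the array in 20 of the 27 whole gut cases. It stood above the other whole guts for C1qa (2.61 against 2.48 to 2.54), Cdh1 (3.04 against 2.93 to 2.98), Cdh2 (-1.65 against -1.83 to -1.77), Cps1 (3.24 against 3.12 to 3.17), Cxcr4 (0.16 against -0.31 to -0.13), Fabp7 (-0.81 against -0.99 to -0.92), Gdnf (-0.21 against -1.16 to -0.77), Jun (-0.95 against -1.24 to -1.14), Mcm2 (2.32 against 2.01 to 2.15) and Nefm (0.24 against -0.45 to -0.19). It stood below them for Cdkn1a (-1.30 against -1.18 to -1.08), Fahd1 (2.10 against 2.42 to 2.62), Ghrl (1.48 against 1.95 to 1.99), Insig1 (-0.51 against 0.55 to 0.86), Ndrg1 (1.95 against 2.15 to 2.22), Perp (1.12 against 1.52 to 1.75), Sdr16c5 (1.93 against 2.59 to 2.71), Sst (0.095 against 0.90 to 1.503), Stard4 (0.74 against 0.94 to 1.12) and Vip (-2.02 against -1.94 to -1.87). Whole gut 5 was low for Cel (1.07 against 1.87 to 2.31), Ctrb1 (2.54 against 3.04 to 3.37) and Shmt2 (0.69 against 1.01 to 1.10). Whole gut 2 was low for Robo2 (0.91 against 1.80 to 2.21) and Tfap2a (-1.49 against -1.32 to -1.22), whole gut 3 for Npy (-2.40 against -2.25 to -2.18) and whole gut 1 for Ephx1 (-2.66 against -2.61 to -2.57).

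The 8 ENCC cases were no more than chance alone would give at the rate stated above. ENCC gut 3 was the array in 5 of them. The p53 targets Cdkn1a and Phlda3 and the matrix gene Tnc were low in it, with scores of -0.76 against 1.15 to 1.19, -1.03 against 1.05 to 1.35, -0.21 against 1.19 to 1.33. The epithelial factor Foxa1 and the receptor Kit, both lower in ENCCs than in whole gut, were high in it, at 0.61 against -1.34 to -1.26, -0.054 against -1.56 to -1.39. ENCC gut 2 was high for Ndrg1 (0.90 against 0.077 to 0.19) and Tbx18 (1.496 against 0.57 to 0.68), and ENCC gut 8 for Trib3 (1.33 against -0.10 to 0.010). No cause was tested for any of these values.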

How the results depend on the processing

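The count of 7752 called genes fell where the spread was estimated otherwise or the threshold was stricter. It was 3757 with the spread of the ENCC arrays alone, 3761 with 1 weight a group, and 2850 with the ENCC spread alone and gut 3 left out. It was 3674 where no overlap and a difference of at least 1 were also asked. Probe sets fitted singly gave 15401 of 45037 (34.2%). The other settings gave 5935 (all 16 arrays of the batch), 7393 (percentile ranks), 7667 (robust moderation) and 7682 (median of probe sets). In 7613 of the called genes the whole gut mean was below 0 for a higher gene or above 0 for a lower one. The side of the ENCC score was not asked. With ENCC scores around 0, most called genes meet this by construction, so that it is no test of the calls. With 1 array left out the count of called genes ranged from 7067 to 9497, the highest without ENCC gut 3. The count of genes without overlap, 5024, was 4962 with the median of probe sets and 5056 to 7064 with 1 array left out. Of 204 named genes, 201 were called; the call was lost for 31 with the ENCC spread alone, 55 with the ENCC spread alone and gut 3 left out, 38 with 1 weight a group, 17 with all 16 arrays, 9 with percentile ranks and 1 with the median of probe sets, and for none with robust moderation. No named gene changed direction in any of these settings or with any array left out. The omission of gut 3 from the ENCC spread, the side of 0, the list counts under these settings and the Hox division were chosen after seeing the data. A filter on low values was not run, since the scores keep no brightness. No paired analysis was possible because ENCC guts and whole guts came from different embryos and no number ties them.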

Other observations

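Whole gut 4 differed from the other whole guts in many gene groups at once. Over 33 lists it had the lowest or the highest mean score of the 8 whole guts in 25, where the other whole guts did so in 3 to 14. Its mean was above the others for DNA replication (1.57 against 1.35 to 1.49), for niche ligands (0.49 against 0.31 to 0.39) and for mesothelium (1.75 against 1.41 to 1.64). Its mean was below them for secretory and endocrine genes (0.95 against 1.20 to 1.31) and for cholesterol genes (-0.76 against -0.63 to -0.43). Its correlations with the other whole guts, 0.914 to 0.939, all lay below those of the other whole guts with each other, 0.943 to 0.966. Without it 7249 genes were called.

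Sex-linked genes gave uneven values among these samples. Xist, the RNA that coats the inactive X chromosome, scored 0.69, -0.91, 0.91 and 0.89 in the ENCCs of guts 2, 3, 8 and 9, and Kdm5d, a gene of the Y chromosome, -0.52, 0.89, -0.96 and -1.01. In the whole guts Xist lay between 0.14 and 0.59 except in whole gut 6, at -0.998. Kdm5d was -0.19 in whole gut 3 and -0.31 in whole gut 7 and lay between 0.07 and 0.41 in the other 6. Whole guts 1, 2, 4, 5 and 8 had Xist and Kdm5d both above 0. A score above 0 is no measure of the presence of a transcript. These scores therefore cannot show whether several embryos were pooled, and the labels do not say. In neither gene did the groups differ by limma (adjusted p = 0.707 for Xist and 0.167 for Kdm5d), but without ENCC gut 3 Kdm5d was called, with a difference of -0.97 (adjusted p = 0.000708).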
